A study of Mus musculus with 4 samples.

Results

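Genes of cholesterol and fatty acid synthesis, their regulators, and the liver X receptors (LXR) with their export targets were followed in mouse macrophages. The set held 31 listed genes. A probe set was taken when the array's annotation names only that gene, which gave 61 probe sets for 28 genes, out of 34945 such probe sets for 18193 genes on the array. The 28 genes were 14 enzymes of cholesterol synthesis, 5 regulators, the sterol carrier Stard4, 3 genes of fatty acid synthesis, and 5 genes of the LXR and export group. Acat2, Soat1 and Nr1h2 are not analysed here. Of the 61 probe sets, 56 passed the filter on mean signal, and all 28 genes had at least 1 among them.

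The cells were macrophages grown from mouse bone marrow for 7 days with 20% L-cell conditioned medium. All received interferon-gamma (100 U/ml) overnight and, after a wash, LPS (10 ng/ml), a bacterial ligand of TLR4, for 2 h. The labels of the LPS arrays put the wash 16 h after priming, and those of the other arrays give no hours. In 2 samples LPS was given alone, which the series calls classical activation, and in the other 2 it was given with immune complexes, which bind Fc gamma receptors and give what the series calls type II activation. Each sample was 1 array. Both groups therefore share the interferon-gamma and the LPS, and only the effect of adding immune complexes can be compared. The labels used here give no strain, sex or age and do not say what the complexes were made of. Nor do they say whether replicates were separate cultures, so p-values measure the spread between these arrays, which may be technical.

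Cholesterol is made from acetyl-CoA through mevalonate, isoprenoid diphosphates, squalene and lanosterol. When sterols are low in the endoplasmic reticulum, SCAP escorts the membrane-bound SREBP factors to the Golgi for cleavage, and they then switch on the genes of synthesis. When sterols are high, the INSIG proteins hold SCAP back. LXR works in the other direction: it is bound by oxidised sterols, and in macrophages it raises the exporters ABCA1 and ABCG1, apolipoprotein E and SREBP-1c, the form of Srebf1 that drives fatty acid synthesis.

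Values are MAS 5.0 signals, the linear intensity that the authors deposited for each probe set, scaled so that every array has the same trimmed mean of 500. The arrays still differed in shape. The median signal was 155.8 on replicate 1 of LPS with immune complexes and from 68.4 to 88.6 on the other 3, and the 5th percentile was 28.1 against 3.3 to 7.9, so dim signals were raised on that array. All 9 macrophage markers listed for this report were bright enough to test, with mean signals of at least 1307, and none passed the threshold. Their summed signal was 172017 and 203638 with LPS alone, against 151218 and 167687 with immune complexes. Markers of T cells, B cells, fibroblasts, adipocytes and dendritic cells gave no reading above 335.8. The 4 neutrophil markers found, of 5 listed, summed to 680 and 705 with LPS alone, against 1099 and 1404 with immune complexes, and the part of these markers in the results was not tested. In whole cultures fewer cells and less RNA per cell cannot be told apart.

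Cholesterol synthesis genes mostly read lower when immune complexes were added, their median log2 difference being -0.33 (14 genes) beside 0.05 for all genes. Insig2 read higher, and the 5 LXR and export genes had a median of -0.16. No member passed the test. Of the 27022 probe sets tested, limma called 14 at a Benjamini-Hochberg adjusted p under 0.05, or 0.0518%, and 0 of the members' 56 were among them. The adjusted p of every member's brightest probe set was 1, and none of these reached an unadjusted p under 0.05, against 1.99% of genes higher and 1.14% lower. The values below are therefore a description of 4 arrays. Each gene is represented by its brightest probe set, and a log2 fold change is the mean of log2(signal + 32) with immune complexes minus that with LPS alone, which understates the change of dim genes.

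The groups did not overlap for 2 members that read higher and 7 that read lower with immune complexes, of 28, against 13.2% and 13.1% of the 12891 genes tested. With each array centred on its median, 13 members read lower and 2 higher without overlap, against 17.9% and 8.41% of all genes. With quantile normalization 7 read lower and 2 higher, against 14.9% and 13.1% of all genes. The background was higher among bright genes: of the 16 members with a mean signal of at least 1000, a subset added after the data were seen, 5 were lower and 0 higher without overlap, against 22.7% and 9.92% of the 3911 genes that bright. A stricter count, chosen after the values were seen, asked for a difference between the groups larger than that between the replicates of either group. It took 3 members on the lower side, Hmgcs1, Fdft1 and Apoe, against 7.86% of all genes. On the higher side it took 2, Insig2 and Lss, against 7.71% of all genes. Both shares are near the background.

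**Figure D1:**
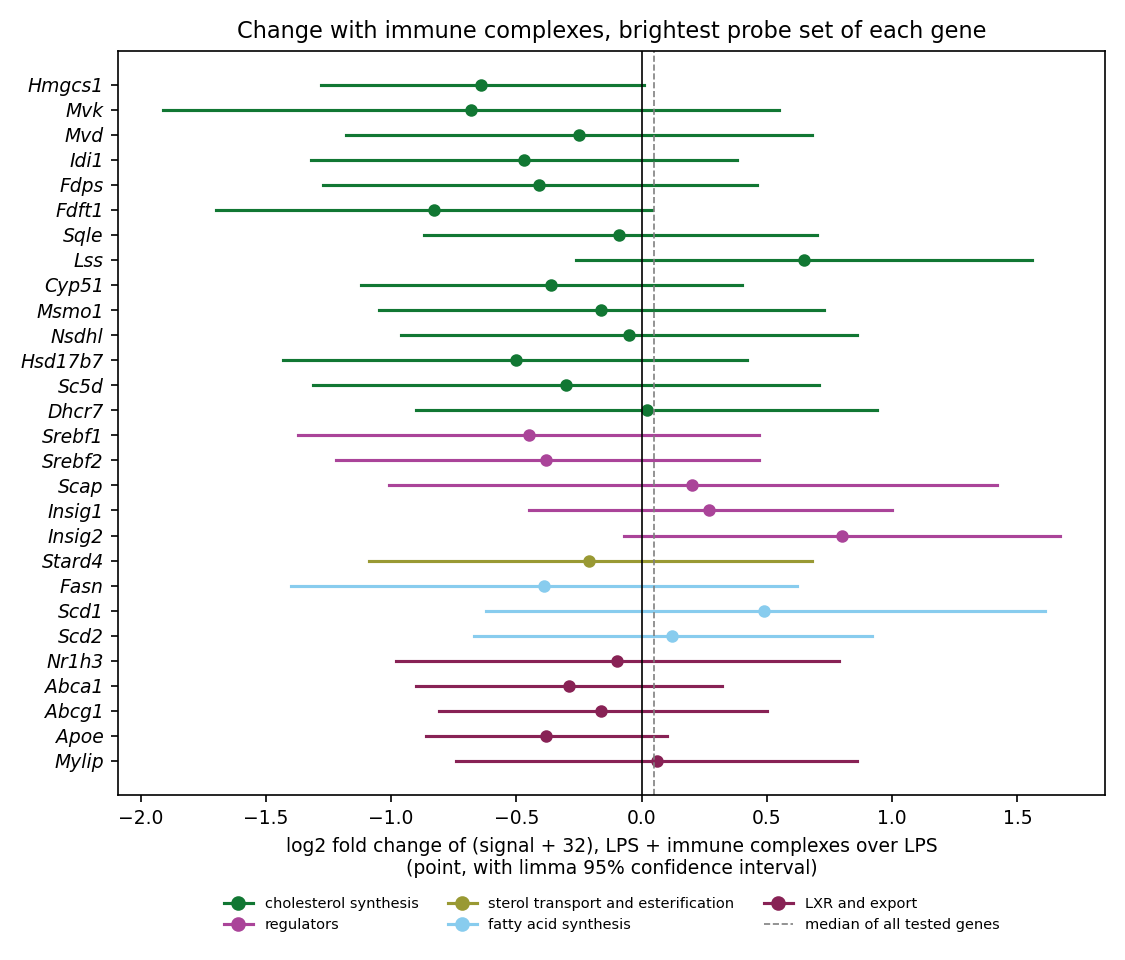
The log2 fold change of each of the 28 genes (x axis, LPS with immune complexes over LPS) is drawn as a point with its limma 95% confidence interval, coloured by role, with the median of all tested genes as a dashed line. All 28 intervals include 0, and 12 of the 14 cholesterol synthesis genes have their point below it.

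Of the 14 enzymes of cholesterol synthesis 12 had a log2 fold change below 0, or 85.7%, with a median of -0.33 and a range from -0.83 to 0.65. Among all tested genes 45.9% lay below 0 and the median was 0.05. That background moved with brightness. Of the 3911 genes with a mean signal of at least 1000, 67.7% lay below 0 with a median of -0.13, and the 9 synthesis genes this bright all lay below 0 with a median of -0.36. Median centring moved the median of all genes to -0.15 and that of the synthesis genes to -0.53. The median of the synthesis genes depended on single arrays: it was 0.01 without LPS replicate 1, -0.58 without LPS replicate 2, -0.40 without replicate 1 with immune complexes and -0.15 without replicate 2 with immune complexes.

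SREBP factors act with NF-Y and Sp1 at the promoters of synthesis genes, so promoter windows were searched for their motifs. RefSeq windows of GRCm38.p6, from 250 bases before the start site to 50 after it, were found for 24 of the 31 listed genes, and where a gene had several the first listed was used. On either strand, the NF-Y box CCAAT was in 10 of the 12 windows of cholesterol synthesis genes, in 4 of the 5 of the regulators and in 1 of the 5 of the LXR and export group, against 37.9% of 27025 genes. The Sp1 box GGGCGG was in all 12 windows of synthesis genes, in 3 of 5 of the regulators and in 2 of 5 of the LXR and export group, against 35.9% of all genes. The core of the sterol regulatory element, CACCCCAC, was in 2 synthesis windows, those of Hmgcs1 and Acat2, and in none of the other members' windows, against 2.77% of all genes. The longer SREBP motif TCACNCCAC, which can overlap that core, was among these windows in Hmgcs1 only, against 1.22% of all genes, and the E-box TCACGTGA was in none of them, against 1.01%. The LXR DR4 element was searched only in a strict form, 2 half-sites of A or G then GGTCA, 4 bases apart. No member's window held this form, against 0.0444% of all genes. Elements with other letters in a half-site were not searched, so the windows, that of Abca1 among them, may hold LXR elements. A match or its lack describes these letters in these windows and shows no binding.

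The windows of Hmgcs1, Insig2 and Apoe are printed here because their difference between treatments exceeded that between replicates. Lss also met this and is not printed, since its probe set can bind transcripts of several genes. Fdft1 met it as well, but no window was found for it, and its brightest probe set is of the same kind. Each is written 5′ to 3′ on the gene's own strand, and capitals mark CCAAT on either strand and, in Hmgcs1, the SREBP motif. The Hmgcs1 window lies at chr13:119690101-119690400 on the plus strand, that of Insig2 at chr1:121332540-121332839 on the minus strand and that of Apoe at chr7:19699139-19699438 on the minus strand.
Hmgcs1: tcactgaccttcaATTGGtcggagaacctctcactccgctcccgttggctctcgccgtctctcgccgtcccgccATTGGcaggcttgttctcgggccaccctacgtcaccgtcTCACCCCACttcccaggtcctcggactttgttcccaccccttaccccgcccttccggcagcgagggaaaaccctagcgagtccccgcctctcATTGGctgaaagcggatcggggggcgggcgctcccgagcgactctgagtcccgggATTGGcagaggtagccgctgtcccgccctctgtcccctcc
Insig2: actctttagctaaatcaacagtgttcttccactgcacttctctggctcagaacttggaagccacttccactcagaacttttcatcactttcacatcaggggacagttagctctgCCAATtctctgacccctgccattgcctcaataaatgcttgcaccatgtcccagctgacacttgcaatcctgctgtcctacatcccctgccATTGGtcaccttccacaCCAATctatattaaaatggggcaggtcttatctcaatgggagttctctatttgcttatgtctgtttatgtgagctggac
Apoe: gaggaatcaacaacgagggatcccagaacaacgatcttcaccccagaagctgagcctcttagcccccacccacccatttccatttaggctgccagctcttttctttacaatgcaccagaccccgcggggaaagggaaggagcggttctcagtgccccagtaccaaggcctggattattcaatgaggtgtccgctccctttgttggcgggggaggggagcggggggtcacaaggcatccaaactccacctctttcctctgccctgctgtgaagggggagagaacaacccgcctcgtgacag
In Hmgcs1 the SREBP motif starts 137 bases before the start site, between CCAAT boxes that start 176 and 45 bases before it. The printed window of Insig2 has 3 CCAAT boxes and no SREBP motif, and that of Apoe has neither. Both genes have further windows at other start sites, which hold neither motif.

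At the entry of the pathway, Hmgcs1 makes HMG-CoA. The 2 arrays with LPS alone gave signals of 10931.3 and 13896.9, and those with immune complexes 6414.4 and 9782.9. Both readings with immune complexes lay below both of the others. The means were 12414.1 ± 2097 and 8098.6 ± 2381.9 (SD, n = 2 arrays each), and the log2 fold change was -0.64 ± 0.30 (SE; limma adjusted p = 1). It was -0.33 without replicate 1 of the arrays with immune complexes. Its 4 other probe sets come from the same gene and arrays and so are no independent evidence. Of these, 2 also had groups that did not overlap, with log2 fold changes of -0.62 and -0.41. The probe set at -0.41 is of the kind that can bind transcripts of several genes. The dimmer remaining 2 overlapped, at -0.14 and -0.74.

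Mvk, the mevalonate kinase, read 186.2 and 214.9 under LPS alone, against 71.9 and 170.2 with immune complexes. These groups did not overlap, but the readings with immune complexes lay farther apart than the means of the groups, and its other probe set had a log2 fold change of 0.14 against -0.68 for the brighter. Without replicate 1 with immune complexes the brighter one had -0.20. Mvd, which makes isopentenyl diphosphate from the doubly phosphorylated product, had -0.25 ± 0.43 (SE). That probe set is of the kind that can bind transcripts of several genes, and the other Mvd probe set had -0.19. Idi1, the isomerase of isopentenyl diphosphate, had -0.47 ± 0.39, or -0.02 without LPS replicate 1, and Fdps, which joins the units to farnesyl diphosphate, had -0.41 ± 0.40. For Mvd, Idi1 and Fdps the groups overlapped.

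Fdft1, the squalene synthase that commits farnesyl diphosphate to sterols, read 2387.9 and 1339.3 under LPS alone, against 1099 and 893.3 with immune complexes, and its log2 fold change was -0.83 ± 0.40 (SE, n = 2 arrays each; limma adjusted p = 1). Both readings with immune complexes were below both of the others, and the 95% confidence interval ran from -1.70 to 0.04. The value was -0.42 without LPS replicate 1, and 0.03 as a mean over its probe sets. The brightest Fdft1 probe set is of the kind that can bind transcripts of several genes. The second brightest, which is not of that kind, read 1420.6 and 1125 against 773.6 and 737.9. Its groups did not overlap either, at a log2 fold change of -0.72. The 2 dim probe sets of Fdft1 had 0.64 and 1.04, and both overlapped between the groups. Sqle, the squalene epoxidase, had -0.09 ± 0.36.

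Lss, which closes the epoxide to lanosterol, stood on the other side from its neighbours in the pathway. It read 347.6 and 274.5 under LPS alone, against 550.8 and 460.6 with immune complexes. The log2 fold change was 0.65 ± 0.42 (SE; limma adjusted p = 1). Both readings with immune complexes were the higher ones. This probe set is of the kind that can bind transcripts of several genes, and the other one tested was dim, with 34.9 to 148.4 over the 4 arrays, overlapping groups and a log2 fold change of 0.70. Lss and Dhcr7 were the synthesis genes above 0.

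The enzymes that turn lanosterol into cholesterol lay between -0.50 and 0.02. Hsd17b7, a reductase of the ring's keto group, read 690.4 and 457.6 under LPS alone, against 447.3 and 335.1 with immune complexes. Its groups did not overlap, though the nearest readings of each were close. Its brightest probe set, at -0.50, is also of the kind that can bind several transcripts, and its other tested probe sets overlapped, at -0.21 and -0.24. Cyp51, the lanosterol demethylase, had groups that did not overlap as well, at -0.36 ± 0.35 (SE), or -0.15 without LPS replicate 1. Msmo1, which removes methyl groups, had -0.16 ± 0.41, Nsdhl, which acts with it, -0.05 ± 0.42, and Sc5d, the sterol desaturase, -0.30 ± 0.46, all with overlapping groups. The dimmer tested probe sets of Sc5d had 0.25 and 0.20. Dhcr7, which makes the last reduction, had 0.02 ± 0.42, and under quantile normalization -0.15.

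**Figure D2:**
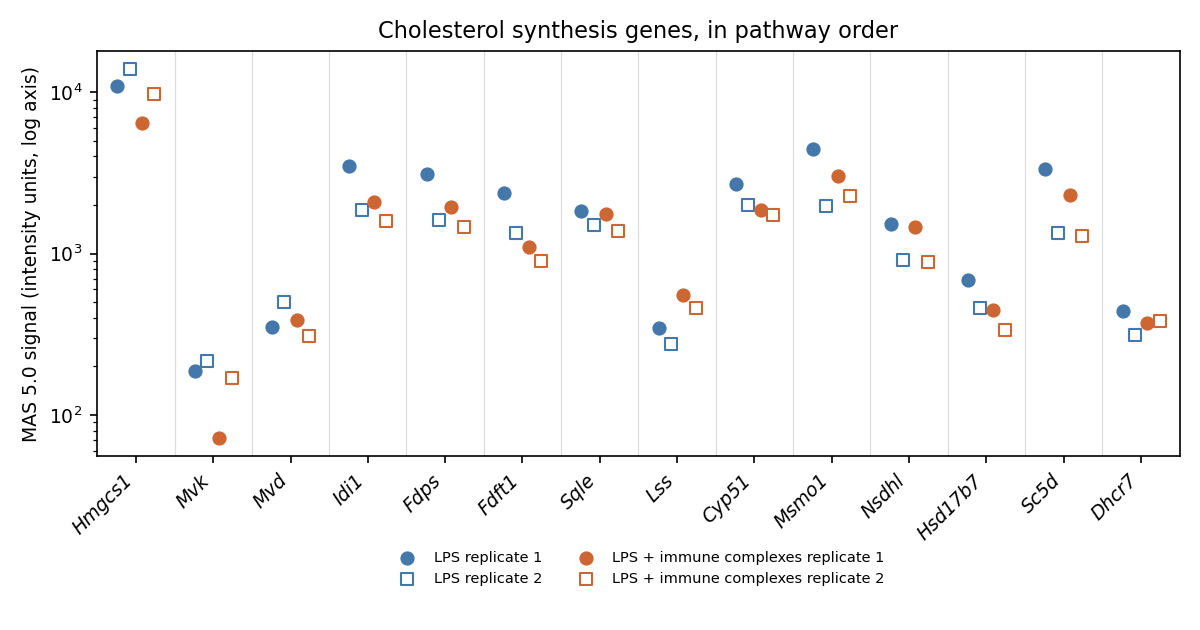
MAS 5.0 signal (log axis) of the 14 cholesterol synthesis genes in pathway order, 1 point per array, with LPS in blue, LPS with immune complexes in orange, and replicates 1 and 2 as circles and squares. Hmgcs1, Mvk, Fdft1, Cyp51 and Hsd17b7 have both orange points below both blue ones, and Lss has both above. For Idi1, Fdps, Sqle, Msmo1, Nsdhl and Sc5d both circles lie above both squares.

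The synthesis genes also differed between replicates of the same treatment. LPS replicate 1 had the highest signal of the 4 arrays for 10 of the 14 genes, or 71.4%, against 18.6% of all tested genes, and replicate 2 with immune complexes had the lowest for 9, or 64.3%, against 25.4%. Sc5d, named here after its values were seen, read 3359.9 and 1349.4 on the LPS arrays, and replicate 2 minus replicate 1 was -1.30 on the log2 scale, against -0.30 between the treatments. Taken from LPS replicate 1, the median log2 difference of the 14 genes was -0.54 on replicate 1 and -0.70 on replicate 2 with immune complexes. Taken from LPS replicate 2, it was 0.20 and -0.18. The median of the synthesis genes was thus below 0 in 3 of these 4 comparisons of single arrays, which share arrays. For all tested genes the same comparisons gave 0.15 and -0.02 from LPS replicate 1, and 0.10 and -0.08 from LPS replicate 2.

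**Figure D3:**
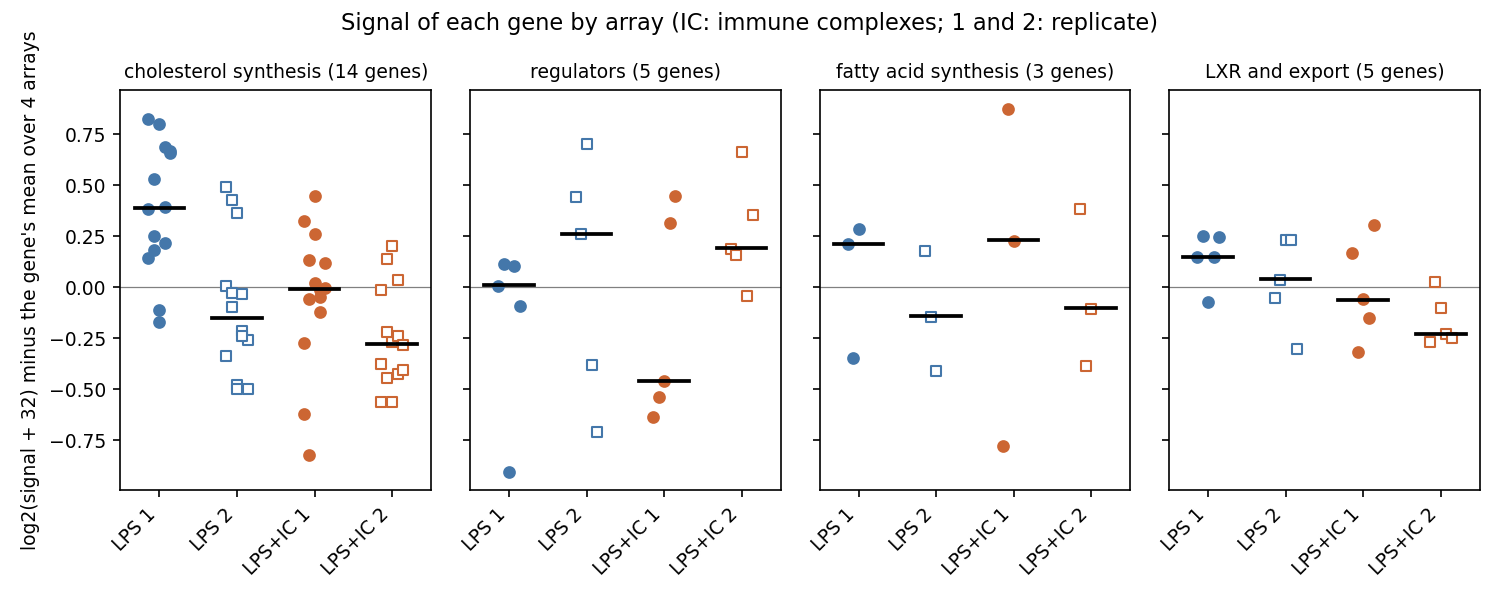
Each point is a gene's log2(signal + 32) on an array minus its mean over the 4 arrays, for the role groups with more than 1 gene, and black bars are medians. In the cholesterol synthesis panel the median is 0.39 on LPS replicate 1, -0.15 on LPS replicate 2, and -0.01 and -0.28 on replicates 1 and 2 with immune complexes.

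The regulators lay on both sides of 0. Insig2, which retains SCAP in the endoplasmic reticulum, gave signals of 805.5 and 513.6 under LPS alone, against 1185.3 and 1107.4 with immune complexes. Both readings with immune complexes were above both of the others, with means of 659.6 ± 206.4 and 1146.4 ± 55.1 (SD, n = 2 arrays each). The log2 fold change was 0.80 ± 0.40 (SE, 95% confidence interval -0.07 to 1.67; limma adjusted p = 1), and 0.49 without LPS replicate 2. Its 2 other probe sets, from the same gene and arrays and so no independent evidence, also had groups that did not overlap, at 0.64 and 0.99. Insig1, its paralogue and itself an SREBP target, read 3851 and 2739.8 under LPS alone, against 4457.9 and 3470.5 with immune complexes. Its groups overlapped, and the log2 fold change was 0.27 ± 0.33.

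Srebf2, the factor of cholesterol synthesis, read 1406.5 and 1563.9 under LPS alone, against 884.8 and 1453.7 with immune complexes, and its other probe set had -0.14 against -0.38 for the brighter. Srebf1, which drives fatty acid synthesis, read 843.9 and 1154 against 529.6 and 961.6, a log2 fold change of -0.45 ± 0.42 (SE). The array's annotation names the gene and not the SREBP-1a or SREBP-1c form. In both genes replicate 1 with immune complexes was the lowest array, and replicate 2 lay within the range of the LPS arrays. Without that replicate 1 the log2 fold changes were -0.03 for Srebf2 and -0.04 for Srebf1. Scap, their escort, read 362 and 1167.9 under LPS alone, against 505.2 and 1136.8 with immune complexes. Its replicates differed more than its treatments, by 1.61 and 1.12 on the log2 scale within the groups against 0.20 between them.

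Stard4, which carries sterols between membranes, read 902.3 and 800.1 under LPS alone, against 930 and 574.4 with immune complexes. These groups overlapped, and its 3 probe sets had log2 fold changes of -0.21, -0.56 and 0.11. Fasn, the fatty acid synthase, read 606.4 and 591.6 against 289.2 and 685.8, so that both its lowest and its highest reading came with immune complexes. Scd1, a desaturase that makes monounsaturated fatty acids, read 194.6 and 228.5 against 496.3 and 188.5. Its higher mean with immune complexes came from replicate 1, the array with raised dim signals, and its other probe set had -0.04; the part of that array's dim signals was not tested. Scd2, the related desaturase, read 3087.1 and 1894.2 against 2967.4 and 2350, a log2 fold change of 0.12 ± 0.36 (SE), or -0.07 with median centring, and its dimmest probe set had -0.04. For Fasn, Scd1 and Scd2 alike the groups overlapped.

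**Figure D4:**
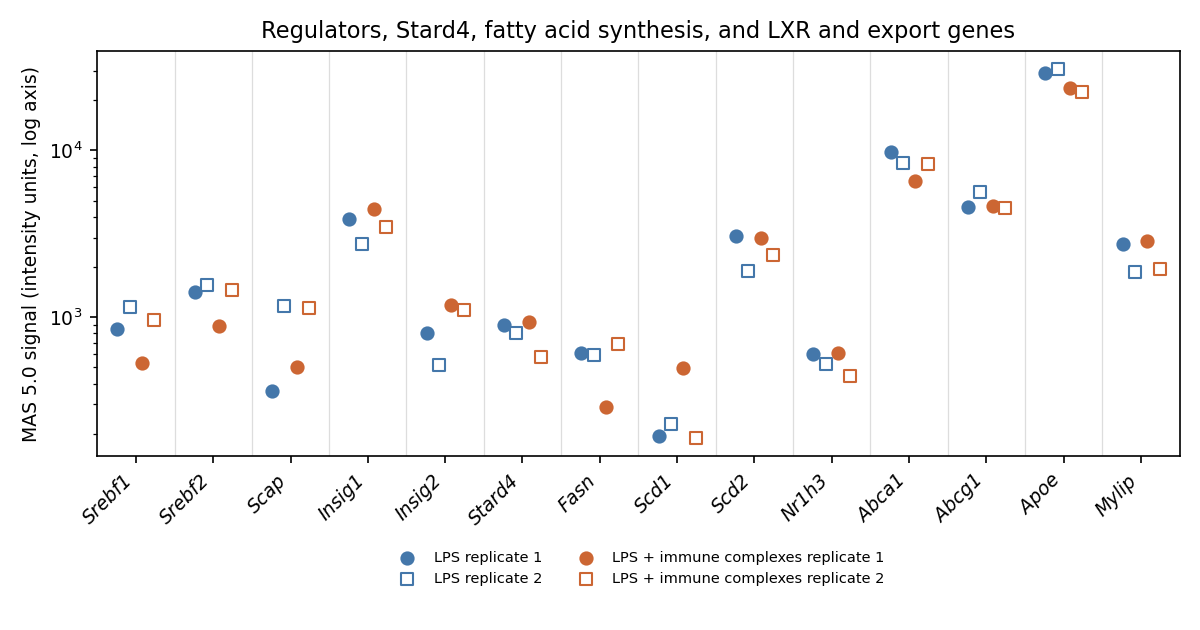
MAS 5.0 signal (log axis) of the other 14 genes, 1 point per array, drawn as for the synthesis genes. Insig2 has both orange points above both blue ones, and Apoe and Abca1 have both below. For Scap, Srebf1 and Srebf2 both squares lie above both circles. For Insig1, Stard4, Scd2, Nr1h3 and Mylip both circles lie above both squares.

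The LXR and export genes had a median of -0.16 and a range from -0.38 to 0.06, and 4 of 5 lay below 0. The 4 of them with a mean signal of at least 1000 had a median of -0.22, against -0.13 for all genes that bright. Apoe, the apolipoprotein that accepts exported cholesterol, gave signals of 28990.5 and 30665.1 under LPS alone, against 23530.3 and 22277.8 with immune complexes. Its replicates were close and its groups did not overlap, with means of 29827.8 ± 1184.1 and 22904 ± 885.7 (SD, n = 2 arrays each). The log2 fold change was -0.38 ± 0.22 (SE, 95% confidence interval -0.86 to 0.10; limma adjusted p = 1), and -0.17 under quantile normalization.

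Abca1, which loads cholesterol onto apolipoprotein A-I, read 9747.3 and 8397.3 under LPS alone, against 6552.8 and 8330.7 with immune complexes. These groups did not overlap, though the nearest readings of each were close, and its dimmest probe set had 0.38 against -0.29 for the brightest. That value was -0.12 without replicate 1 with immune complexes and -0.16 under quantile normalization. Abcg1, which exports to larger lipoprotein particles, read 4575.4 and 5650 against 4631.5 and 4485, a log2 fold change of -0.16 ± 0.30 (SE). Nr1h3, which encodes LXR alpha, read 603.9 and 520.4 against 612.6 and 444.8, with a 95% confidence interval of the log2 fold change from -0.98 to 0.79. Mylip, an LXR target that marks lipoprotein receptors for degradation, read 2739.4 and 1865.7 against 2860 and 1936.2, with an interval from -0.74 to 0.86. For these 3 the groups overlapped. The medians of the synthesis and of the LXR and export genes both lay below that of all genes, and the difference between the 2 lists was not tested.

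A further 54 genes of the same pathways, listed with earlier results of these data known, gave 44 that could be tested. None was called by limma at an adjusted p under 0.05. At an unadjusted p under 0.05, 3 were lower and 0 higher, against 1.14% and 1.99% of all genes. Without overlap, 7 were lower and 5 higher, against 13.1% and 13.2% of all genes. Of the 7 other sterol synthesis genes tested 6 lay below 0, against 45.9% of all genes and 67.7% of those with a mean signal of at least 1000. Their median was -0.14, against 0.05 for all genes and -0.13 for genes that bright. LPS replicate 1 was the highest array for 6 of the 7, against 18.6% of all genes. Pmvk, which acts between Mvk and Mvd, read 820.5 and 721 under LPS alone, against 523 and 593.6 with immune complexes, without overlap, at -0.44 ± 0.39 (SE). Ggps1, which makes geranylgeranyl diphosphate on a side branch, had 0.40 ± 0.44, and Ebp, a sterol isomerase, -0.10 ± 0.33, both without overlap. The nearest Ebp readings were close, at 2471.5 with LPS alone and 2462.3 with immune complexes. The dimmest Ggps1 probe set tested lay the other way, at -0.51, also without overlap. The 8 other SREBP-related genes had a median of -0.02. Among them Npc1 and Npc2, which move cholesterol out of lysosomes, had groups that did not overlap in opposite directions, at 0.43 ± 0.41 and -0.28 ± 0.22. The nearest Npc1 readings were close, at 677.0 with LPS alone and 685.5 with immune complexes. The other Npc2 probe sets overlapped, at -0.22, 0.01 and 0.0. The 11 other fatty acid synthesis genes had a median of 0.13, and for all 11 the groups overlapped.

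The 18 other LXR and efflux genes had a median of 0.01 and held the 3 genes that were lower at an unadjusted p under 0.05, where 1.14% of all genes were. Ch25h, which makes the oxysterol 25-hydroxycholesterol, read 7331.3 and 8725.4 under LPS alone, against 3621.7 and 5702.2 with immune complexes, and its log2 fold change was -0.81 ± 0.32 (SE). Nrip1, a nuclear receptor cofactor, read 1932.7 and 1306 against 877.4 and 807.1, at -0.89 ± 0.38. Its probe sets at -0.59 and -0.44 did not overlap either. Those at -0.49, -0.83 and 0.62 overlapped, the last lying the other way. Lpl, the lipoprotein lipase, read 26812.5 and 32461.8 against 18138.4 and 22621.8, at -0.54 ± 0.24, while its other probe set overlapped, at -0.15. The groups did not overlap for Ch25h, Nrip1 or Lpl, and the limma adjusted p of each was 1. Rxra, a partner of LXR, had 0.79 ± 0.48 without overlap, on the higher side. It read 156.3 and 232.4 under LPS alone, against 480 and 259.9 with immune complexes. The highest reading was on the array with raised dim signals, whose part was not tested. Its other tested probe set overlapped, at 0.15.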

How the data were processed

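Total RNA from 4 macrophage samples was hybridised to 1 Affymetrix array each, per the labels' protocols. The authors deposited linear intensity values, MAS 5.0 signals per the submitters' processing notes, for 45037 probe sets and 64 controls, with no detection calls in the table used here. At most 74 values were identical between any 2 arrays, so none was a copy. The number of arrays limits the precision.

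Groups came from sample titles. Controls and probe sets under the 40th percentile of mean signal (69.7) were left out, and log2(signal + 32) was compared in limma 3.58.1 (R 4.3.3) by lmFit and eBayes with a variance trend, no block, two-sided, adjusted by Benjamini-Hochberg over 27022 probe sets. The fit was tested on simulated data. With 2 arrays against 2 an exact two-sided permutation test cannot go below 0.333, so none is given. Names came from GEO's annotation, and the gene IDs of all 28 members matched RefSeq's table of GRCm38.p6. Each gene took its brightest tested probe set. All members are named by role. Readings of every array were given for up to 5 genes of each role group with the largest changes, and other probe sets where their sign differed. Of each further list up to 3 genes without overlap were named by size, and all of a count of 3. The members and lists were chosen with earlier results of these data known. Alternatives changed the scaling, pseudocount, filter, variance trend, block, probe set choice and arrays used.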

Additional observations from a re-analysis of the deposited data

How the results depend on the processing

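With 2 arrays in each group the precision was low, and for each difference below the cause was not tested. The counts of probe sets called, 12 higher and 2 lower, were 0 and 0 with quantile normalization or without limma's variance trend, 33 and 14 with median centring, 20 higher with a pseudocount of 1, 6 and 0 with 100, 68 and 21 with no filter, 4 and 0 with a filter at the 60th percentile, and 32 and 5 at adjusted p under 0.1. Leaving out an array gave 0 to 77 higher and 0 to 32 lower. When LPS replicate 1 was dropped they were 74 and 23, when LPS replicate 2 was dropped 77 and 32, and when either array with immune complexes was dropped 0 and 0. Where limma called 0 in both directions, the probe sets at an unadjusted p under 0.05 numbered 528 higher and 292 lower (quantile), 476 and 143 (no trend), 323 and 435 (replicate 1 with immune complexes dropped) and 3433 and 574 (replicate 2 with immune complexes dropped), against 503 and 256 as reported. Where it called 0 lower only, they numbered 246 lower with a pseudocount of 100 and 221 with the 60th percentile filter. The remaining array of a group was then given the spread of the other group. Labels do not say that equal replicate numbers mark a shared batch, though deviations of equally numbered arrays correlated at 0.38. With the replicate number as a replicate block the counts were 404 and 267, and Hmgcs1 was the only member called, at limma adjusted p = 0.0107, against 3.03% of genes. Its adjusted p and that of all members was at least 0.285 under the other alternatives.

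The median of the LXR and export genes was -0.35 with median centring. Leaving out an array gave medians from -0.58 to 0.01 for cholesterol synthesis, -0.45 to 0.09 for the regulators and -0.22 to 0.39 for fatty acid synthesis. Members without overlap numbered 1 on the higher side when probe sets ending in _x_at or _s_at were left out (13.3% of all genes), and 13 on the lower side with median centring (17.9%). Without an array in turn they numbered 3 to 7 higher, against 25.1% to 44.0% of all genes, and 10 to 17 lower, against 24.9% to 34.2%.

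Signs of uncalled members turned in 28 of 392 recomputations. The mean over probe sets gave 0.03 for Fdft1 and 0.05 for Sc5d, quantile normalization -0.15 for Dhcr7, and median centring -0.18 for Dhcr7, -0.07 for Scd2 and -0.14 for Mylip. Leaving out arrays gave ranges across 0 for Fdps (-0.87 to 0.05), Sqle (-0.26 to 0.09), Msmo1 (-0.74 to 0.41), Nsdhl (-0.41 to 0.31), Sc5d (-0.95 to 0.34), Dhcr7 (-0.21 to 0.25), Scap (-0.60 to 1.01), Stard4 (-0.54 to 0.13), Fasn (-0.97 to 0.19), Scd1 (-0.14 to 1.12), Scd2 (-0.22 to 0.47), Nr1h3 (-0.31 to 0.12) and Mylip (-0.22 to 0.33). Values that kept their sign but moved by over 1.5 times ranged from -0.94 to -0.33 for Hmgcs1, -1.16 to -0.20 for Mvk, -0.49 to -0.01 for Mvd, -0.92 to -0.02 for Idi1, -1.24 to -0.42 for Fdft1, -0.58 to -0.15 for Cyp51, -0.78 to -0.22 for Hsd17b7, -0.86 to -0.04 for Srebf1, -0.72 to -0.03 for Srebf2, 0.03 to 0.52 for Insig1, 0.49 to 1.11 for Insig2, -0.46 to -0.12 for Abca1 and -0.31 to -0.01 for Abcg1. For Lss and Apoe they moved by less when an array was left out. Quantile normalization moved the Apoe value by over 1.5 times.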
